A study of Saccharomyces cerevisiae with 5 samples.

Results

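The mitochondrial ATP synthase of budding yeast (Saccharomyces cerevisiae) was followed through 10 nuclear genes: 8 subunit genes (ATP1, ATP2, ATP3, ATP5, ATP7, ATP14, ATP15 and ATP17), the inhibitor gene INH1 and STF2, described as a stabilising factor of the inhibited enzyme. Members were the features whose symbol in the platform annotation is one of these names, which gave 10 genes of the 5196 named on the array, each with 1 feature. RNA came from cells that grew for 2 h at atmospheric pressure (0.1 MPa) after 16 h at 30 MPa and 25 °C (recovery, labelled Cy5), and from cells harvested at decompression after the same pressure treatment (0 h, labelled Cy3). Both groups had therefore been under pressure, and no culture kept at 0.1 MPa throughout was compared. The labels name no strain. Each of 3 hybridizations of independent biological samples carried both RNAs on a 2-colour spotted array, and recovery RNA was Cy5 each time, so the effect of a dye and that of recovery cannot be told apart. Hybridizations 1 and 2 were scanned at high and low laser power and hybridization 3 once.

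ATP synthase makes ATP from ADP and phosphate with the proton gradient that the respiratory chain builds across the inner mitochondrial membrane. Its F1 head holds the catalytic sites, and a central stalk turns inside it. A membrane-embedded rotor and channel pass the protons, and a peripheral stalk keeps the head from turning along. When the gradient is lost the enzyme can run backwards and hydrolyse ATP. Yeast blocks this with the small protein Inh1, which binds the head. Most subunits are encoded in the nucleus, and in yeast their transcription, like that of the respiratory chain, is known to respond to the HAP activators and to glucose.

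Values are log2 ratios of recovery over decompressed cells. The sources used here do not state the numerator. Recovery over decompressed was taken as the likely direction, from the order of the channels in the labels, and all directions below reverse should the ratio have been formed the other way round. A ratio from polyA RNA of a whole culture does not tell a change in every cell from a larger change in some of them. Of 6336 features, between 2089 (hybridization 3) and 5007 (hybridization 2, high power) carried a value. The main test covered the 1891 genes (unnamed features counted as genes) measured in each of the 3 hybridizations, with a median log2 ratio of 0.09. It included 9 of the 10 members (90%), against 35.3% of all named genes. INH1 was the exception, with values in hybridization 1 alone.

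Transcripts of all 8 subunits had positive log2 ratios in every hybridization, and 5 of the 8 were higher in recovery by the test. Those 5 were ATP14, ATP17, ATP5, ATP3 and ATP15, with mean log2 ratios between 0.77 and 1.61. The other 3, ATP1, ATP2 and ATP7, stood between 0.64 and 0.71 and did not pass. STF2 had a mean of -0.59 and did not pass either. Across all genes tested 15.1% were called higher and 12.2% lower, and 31.9% were above 0 in all 3 hybridizations (limma, Benjamini-Hochberg adjusted p threshold of 0.05). The median over the 8 subunits was 0.82. Without hybridization 1 a single subunit, ATP14, passed the test. Without hybridization 2 the count was 4, with ATP15 lost, and without hybridization 3 it was 5, with ATP3 lost and ATP7 gained. Over all 1891 genes, 115, 155 and 263 were higher without hybridization 1, 2 and 3, against 285 with all 3.

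**Figure D1:**
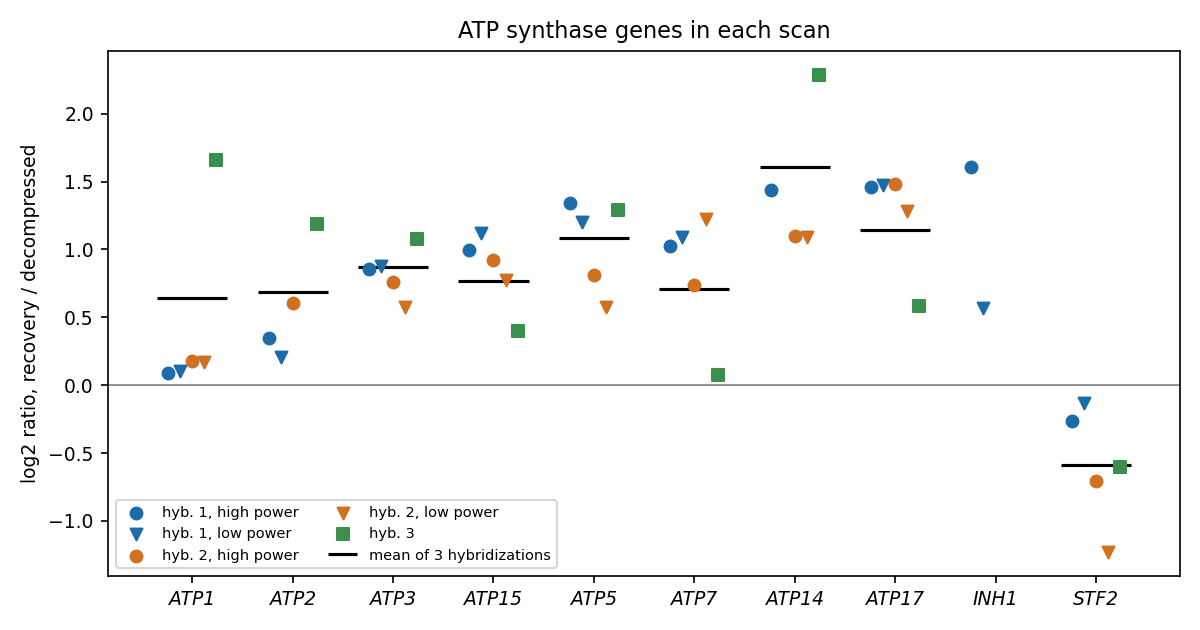
Log2 ratio of recovery over decompressed cells (vertical axis) for the 10 genes (horizontal axis), 1 point per scan, coloured by hybridization, with a black bar at the mean of genes measured in all 3 hybridizations. Every subunit point lies above 0, every STF2 point lies below 0, and INH1 has the 2 points of hybridization 1 alone.

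The catalytic head is built from alternating alpha and beta subunits around the gamma subunit of the central stalk. ATP1 (YBL099W), the alpha subunit, had log2 ratios of 0.09 (high power) and 0.10 (low power) in hybridization 1, likewise 0.18 and 0.17 in hybridization 2, and 1.66 in hybridization 3. Hybridizations 1 and 2 thus placed ATP1 close to no change and hybridization 3 placed it at more than a 2-fold difference. Its mean was 0.64 ± 0.88 (SD, n = 3), with a 95% confidence interval from -0.003 to 1.29 (limma adjusted p = 0.13). Without hybridization 3 the mean of ATP1 was 0.14. Among all genes tested, 5.82% had a wider range over the 3 hybridizations than the 1.56 of ATP1.

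ATP2 (YJR121W), the beta subunit that carries the catalytic sites, had log2 ratios of 0.34 and 0.21 in the scans of hybridization 1, 0.61 in the high power scan of hybridization 2 and 1.19 in hybridization 3. As for ATP1, hybridization 3 was the highest and hybridization 1 the lowest. The mean was 0.69 ± 0.46 (SD, n = 3, limma adjusted p = 0.0579). It passed with the high power scans alone, at 0.71 (adjusted p = 0.0423).

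ATP3 (YBR039W), the gamma subunit that turns inside the head, had 0.86 and 0.88 in hybridization 1, 0.76 and 0.57 in hybridization 2 and 1.08 in hybridization 3. It was the most even of the 8 subunits, with a range of 0.41 over the hybridizations. It rose by 0.87 ± 0.20 (SD, n = 3, limma adjusted p = 0.0162), a 1.83-fold difference. Without hybridization 1 or 3 it missed the threshold (adjusted p = 0.0985 and 0.052) at means of 0.87 and 0.77.

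ATP15 (YPL271W), the epsilon subunit at the foot of the central stalk and the shortest gene of the 8 at 189 bases, had 0.99 and 1.12 in hybridization 1, 0.92 and 0.78 in hybridization 2 and 0.40 in hybridization 3. Here hybridization 3 was the lowest, the reverse of ATP1 and ATP2. It rose by 0.77 ± 0.34 (SD, n = 3, limma adjusted p = 0.0321). That call was lost without hybridization 1 (0.62, adjusted p = 0.261), without hybridization 2 (0.73, adjusted p = 0.134) and once the trend of the ratio on gene length was removed (0.11, adjusted p = 0.777).

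The peripheral stalk gave the largest value of the group. ATP14 (YLR295C), subunit h of the stalk, had 1.44 in the high power scan of hybridization 1, 1.10 in both scans of hybridization 2 and 2.29 in hybridization 3. It rose by 1.61 ± 0.61 (SD, n = 3, limma adjusted p = 0.000982), a 3.05-fold difference, and was called in each of the 13 alternatives in which it had a value, at 1.11 to 1.86.

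ATP5 (YDR298C), the subunit that ties the stalk to the top of the head and is called OSCP in animals, had 1.34 and 1.20 in hybridization 1, 0.81 and 0.57 in hybridization 2 and 1.29 in hybridization 3. It rose by 1.08 ± 0.34 (SD, n = 3, limma adjusted p = 0.0058), a 2.12-fold difference, and missed the threshold only without hybridization 1 (0.99, adjusted p = 0.0595) among its 14 alternatives. ATP7 (YKL016C), subunit d of the stalk, had 1.02 and 1.09 in hybridization 1, 0.74 and 1.22 in hybridization 2 and 0.08 in hybridization 3. Hybridization 3 lay far under the others, and the mean of 0.71 ± 0.54 (SD, n = 3) did not pass (limma adjusted p = 0.0594). Without hybridization 3 ATP7 was at 1.02 and passed (adjusted p = 0.0236).

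In the membrane part, ATP17 (YDR377W), subunit f, had 1.46 and 1.48 in hybridization 1, 1.48 and 1.29 in hybridization 2 and 0.58 in hybridization 3. It rose by 1.14 ± 0.49 (SD, n = 3, limma adjusted p = 0.0055), a 2.21-fold difference. The call was lost without hybridization 1 (0.98, adjusted p = 0.0648) and with the length trend removed (0.66, adjusted p = 0.0595). Differences between one subunit and another were not tested.

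Subunit genes outside the 10 were read from a list of the remaining ones. ATP16, the delta subunit of the central stalk, rose by 1.00 ± 0.17 (SD, n = 3, limma adjusted p = 0.0074), with 1.18 in the single scan of hybridization 1 that gave a value, 0.99 and 0.98 in hybridization 2 and 0.85 in hybridization 3. ATP20, subunit g, which helps enzyme pairs form in the membrane, rose by 0.70 ± 0.26 (SD, n = 3, adjusted p = 0.0448). ATP4, subunit b and the backbone of the peripheral stalk, lacked hybridization 1 and had 0.17 and 0.62 in the scans of hybridization 2 and 0.21 in hybridization 3. With ATP16 and ATP20 counted, 7 of the 10 subunit genes tested were higher and none lower. Without hybridization 1 that count was 1, without hybridization 2 it was 5 and without hybridization 3 it was 6. Over all 1891 genes the same settings called 115, 155 and 263 higher, against 285 (15.1%) with all 3 hybridizations. With the length trend removed the count of subunit genes was 5, against 11.2% of all genes. The call of ATP16 was lost without hybridization 1 (adjusted p = 0.0808), and that of ATP20 in each of the 3 cases and with the length trend removed (0.26, adjusted p = 0.437). ATP18, ATP19, TIM11 and the mitochondrially encoded ATP6, ATP8 and OLI1 were not analysed here.

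INH1 (YDL181W), the inhibitor that stops ATP hydrolysis by the head, had a log2 ratio of 1.61 in the high power scan of hybridization 1 and 0.57 in the low power scan of the same array. Hybridizations 2 and 3 gave no value, so INH1 has no replicate and was not tested. The scans differed by 1.04, more than in 99.6% of the 3481 genes with both scans of that hybridization, where the median difference was 0.11. Both readings were positive, on the side of the subunits, and their mean of 1.09 lay within the range of the 8 subunits in that hybridization, 0.10 to 1.47.

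STF2 (YGR008C) codes for a small hydrophilic protein first described as stabilising the complex of ATP synthase with its inhibitor, and later as a hydrophilin that protects cells through drying. It had -0.26 and -0.13 in hybridization 1, -0.70 and -1.23 in hybridization 2 and -0.60 in hybridization 3. All 5 scans were negative, where every scan of every subunit was positive. The mean was -0.59 ± 0.39 (SD, n = 3), with a 95% confidence interval from -1.12 to -0.06, and missed the threshold (limma adjusted p = 0.0948). Being below 0 in all 3 hybridizations was shared by 23.8% of the genes tested. With the length trend removed STF2 was at -1.14 and passed (adjusted p = 0.0024).

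The paralogs of these genes were read where the array named them. TMA10, the paralog of STF2, had 1.11 and 1.32 in hybridization 1 and 1.99 and 2.02 in hybridization 2, with no value in hybridization 3. Every reading of TMA10 was positive, where those of STF2 in the same scans were negative. When genes lacking 1 hybridization were let into the test, 13.4% of 4368 were called higher and 14.0% lower; TMA10 was among the higher, at a mean of 1.61 (limma adjusted p = 3.97e-06), although the spread of a gene with 2 values came almost wholly from the other genes. STF1, the paralog of INH1, was not analysed here. Among hydrophilins, HSP12, a membrane-stabilising stress protein, fell to -0.91 ± 0.94 (SD, n = 3, adjusted p = 0.043), with -0.61 and -0.72 in hybridization 1, -1.93 and -1.96 in hybridization 2 and -0.11 in hybridization 3. Without hybridization 2 HSP12 was at -0.39 and its call was lost (adjusted p = 0.448), as it was without hybridization 1 (adjusted p = 0.0756).

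Subunits were then set against STF2 within each hybridization. All 8 subunits were above STF2 in all 3 hybridizations, as were 58.7% of all genes tested. The differences in log2 ratio ran from 0.29 (ATP1) to 1.66 (ATP17) in hybridization 1, from 1.14 (ATP1) to 2.35 (ATP17) in hybridization 2 and from 0.68 (ATP7) to 2.89 (ATP14) in hybridization 3. On average ATP14 stood 2.20 above STF2, ATP17 1.73, ATP5 1.67, ATP3 1.46, ATP15 1.36, ATP7 1.29, ATP2 1.28 and ATP1 1.23.

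By limma on these differences, 8 of 8 subunits were higher than STF2, with adjusted p from 1.66e-07 (ATP14) to 0.0043 (ATP1), and so were 37.7% of all genes. Every difference contains the same STF2 values, and this fit gave all 8 subunits the same standard error, 0.37. Its prior degrees of freedom were infinite, so a subunit's own spread over the hybridizations did not count. A second calculation, chosen after that was seen, combined the standard errors of the single-gene fits. It treated a subunit and STF2 as independent, so the pairing within a hybridization did not enter its standard errors. For ATP1 that standard error of the mean difference was 0.39. Its 3 paired differences, 0.29, 1.14 and 2.26, had an SD of 0.99, which is the spread of single values and not an error of the mean. The second calculation also called 8 of 8, with adjusted p from 0.0021 (ATP14) to 0.0292 (ATP1), against 31.2% of all genes. Without hybridization 2, 5 of 8 passed, and ATP1, ATP2 and ATP7 were lost (limma adjusted p = 0.0613, 0.0558 and 0.0625). The standard errors of that fit differed between subunits, from 0.33 (ATP15) to 0.44 (ATP1). The mean difference of ATP1 was 1.28 there, against 1.23 with all 3 hybridizations. Without hybridization 3, 6 of 8 passed, and ATP1 and ATP2 were lost (adjusted p = 0.274 and 0.117). With the length trend removed the 8 differences ran from 1.25 (ATP15) to 2.33 (ATP14) and all were called. STF2 itself was at -1.14 there, against -0.59 in the main fit. The median of the 8 subunits was 0.81, against 0.82. The fits without hybridization 3 and with the length trend removed again gave all 8 subunits the same standard error, 0.49 and 0.30. For the alternatives, neither the second calculation nor the share of all genes above STF2 was computed. No test of differences from INH1 could be made from 1 hybridization. There, 5 subunits (ATP1, ATP2, ATP3, ATP15 and ATP7 at 0.10 to 1.06) were lower than INH1 by its mean of both scans. So were 93.7% of all genes with a value in hybridization 1. The order of INH1 and the subunits changed with the scan taken.

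**Figure D2:**
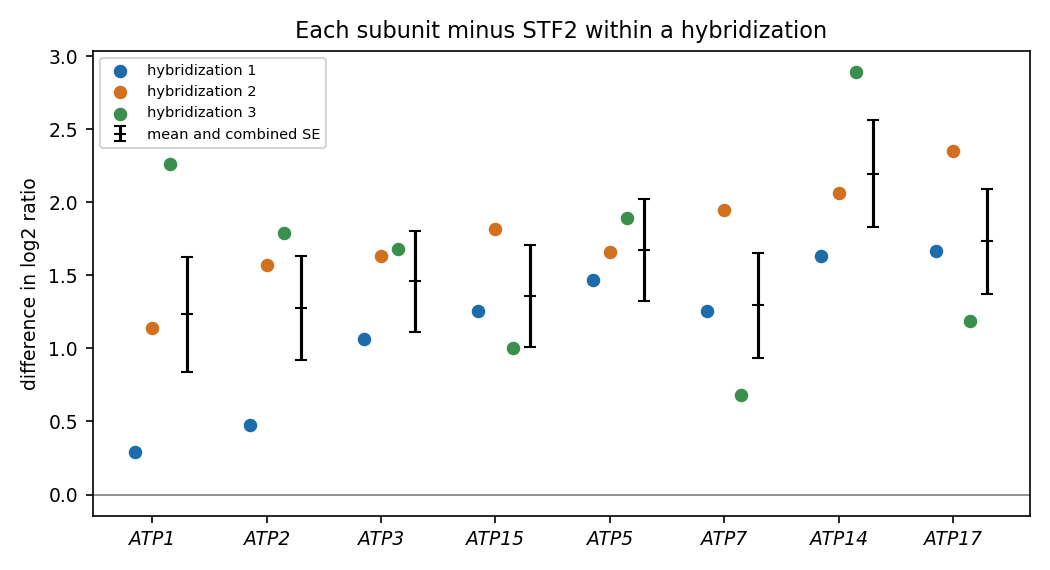
Log2 ratio of each subunit minus that of STF2 (vertical axis) in each of the 3 hybridizations (coloured points), with the mean and the combined standard error in black. That error comes from the single-gene fits and does not measure the spread of the points. All points lie above 0, the lowest being ATP1 in hybridization 1 at 0.29.

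The order of the subunits differed between hybridizations. Across the 8 subunits the Pearson correlation of the log2 ratios was 0.86 between hybridizations 1 and 2, -0.14 between 1 and 3 and -0.30 between 2 and 3, given as a description of 8 points. Over all 1891 genes tested the same correlations were 0.72, 0.59 and 0.55. ATP1, ATP14 and ATP2 were higher in hybridization 3 than in the mean of the other 2, by 1.52, 1.02 and 0.74. ATP7, ATP17 and ATP15 differed by -0.94, -0.84 and -0.55. ATP3 and ATP5 moved by 0.31 each.

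Gene length moved with part of this. In hybridizations 1 and 2 the short subunit genes had the higher ratios, with Spearman correlations between ratio and length of -0.74 and -0.86 over the 8 subunits. In hybridization 3 the correlation was 0.45. The median of the 3 longest genes, ATP1 (1638 bases), ATP2 (1536) and ATP3 (936), was 0.28, 0.61 and 1.19 in hybridizations 1, 2 and 3, and that of the 5 shorter ones 1.27, 0.98 and 0.58. Over all genes with a length the correlation was negative each time, at -0.48, -0.24 and -0.23. With the trend removed the median of the 8 subunits was 0.81, and 4 were called higher (ATP2, ATP3, ATP5 and ATP14), against 11.2% of all genes (11.5% were lower, STF2 among them).

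**Figure D3:**
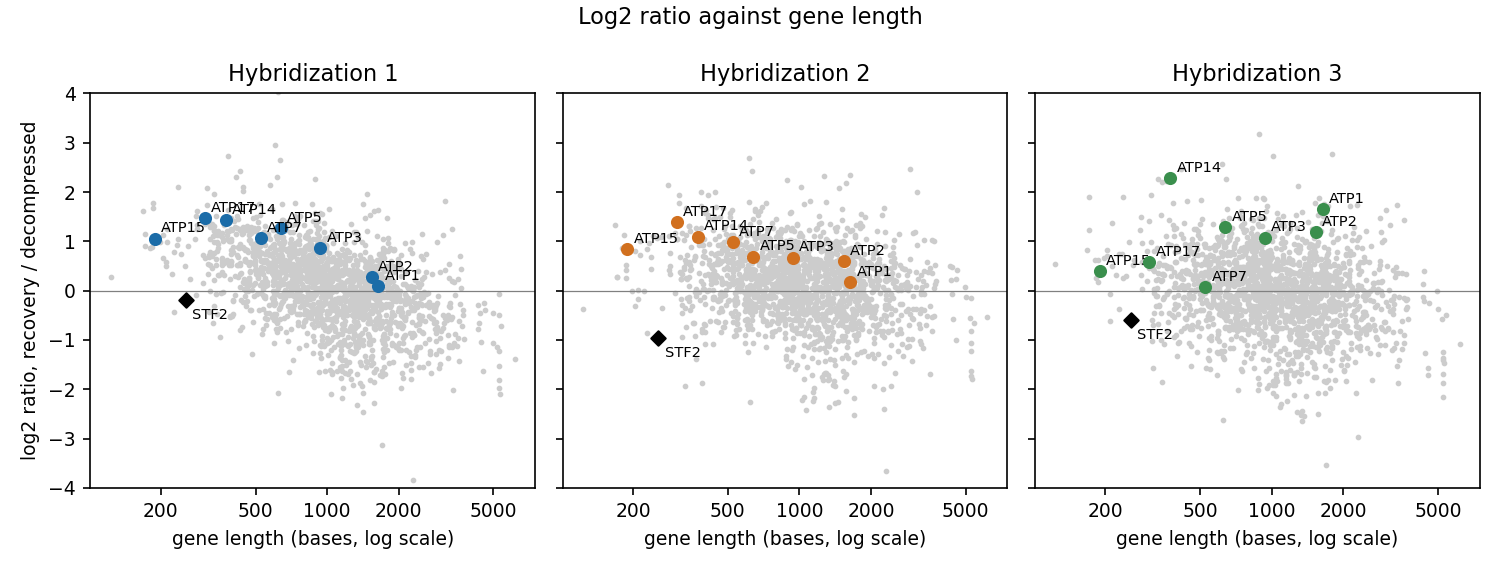
Log2 ratio (vertical axis) against gene length in bases (horizontal axis, log scale) in each hybridization, for the 1832 tested genes with a length (grey), the 8 subunits (coloured) and STF2 (black diamond). The subunits follow the fall with length of the other genes in hybridizations 1 and 2 but not in hybridization 3, and 3 grey points more than 4 away from 0 are not drawn.

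The values of some subunits in hybridization 3 also moved with the median of their block of feature numbers. Feature numbers fall into 48 blocks of 132 that share their leading digits, and the sources used here do not say whether a block is an area of the slide. The blocks that hold ATP14, ATP2 and ATP1 had median log2 ratios of 1.03, 0.94 and 0.73 in hybridization 3, over 47, 56 and 63 features with a value. The first of these was the highest median of any block in any hybridization. The blocks of ATP7 and ATP17 had -0.58 (16 features) and -0.19 (52 features). ATP5 and ATP3, at 1.29 and 1.08, were also high in hybridization 3, in a block with a median of 0.05 (45 features), and the block of ATP15 had 0.07 (59 features). High values in hybridization 3 occurred both in blocks with high medians and in a block near 0, and a link with the block was not tested.

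Relative to its block, each of the 8 subunits was positive in hybridization 3, from 0.25 (ATP2) to 1.26 (ATP14). In hybridization 1, ATP1 and ATP2 were at -0.05 and -0.02 relative to their blocks and the other 6 subunits at 1.00 to 1.87. In hybridization 2 ATP1 was at -0.25 and the others at 0.64 to 1.47. When each hybridization was centred within blocks, ATP1 and ATP2 averaged 0.21 and 0.29 and the other 6 subunits 0.71 to 1.53. Those 6 were called higher, where 335 of all 1891 genes were called higher and 293 lower. ATP3, ATP5 and STF2 lie in one block, so their differences from each other hold within it: ATP3 stood 1.07, 1.63 and 1.68 above STF2 and ATP5 1.47, 1.66 and 1.89 in hybridizations 1, 2 and 3.

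**Figure D4:**
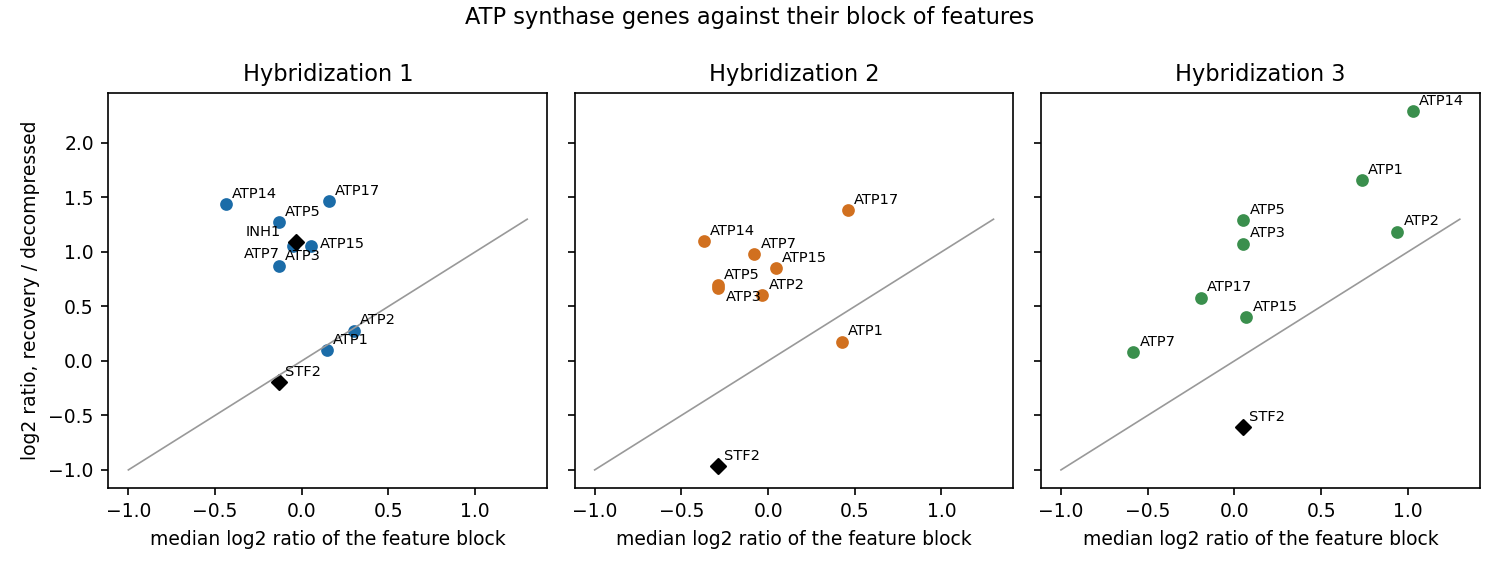
Log2 ratio of each gene (vertical axis) against the median log2 ratio of its block of 132 features (horizontal axis) in each hybridization, with a grey line where both are equal. In hybridization 3 all 8 subunits lie above the line and STF2 below it, while ATP1 and ATP2 lie on or under the line in hybridization 1.

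Genes that assemble the enzyme or express its mitochondrially encoded subunits gave values of both signs. Of 13 listed, 5 were tested, with 0 called higher and 1 lower, against 15.1% and 12.2% of all genes, and their median was 0.12. No difference between these genes and the subunits was tested. ATP22 (YDR350C), needed in yeast for translation of the ATP6 message, fell to -1.11 ± 0.71 (SD, n = 3, limma adjusted p = 0.011), with -0.37 and -0.48 in hybridization 1, -0.98 and -1.13 in hybridization 2 and -1.84 in hybridization 3. Without hybridization 3 its mean of -0.74 did not pass (adjusted p = 0.076). ATP12, a chaperone for the alpha subunit, was at 0.93 and 0.94, 1.07 and 0.44, and -0.07 in the 3 hybridizations and did not pass (adjusted p = 0.143), but passed without hybridization 3 (0.85, adjusted p = 0.0394). ATP11, its counterpart for the beta subunit, had -0.005 and -0.01 in hybridization 1 and -0.10 and -0.01 in hybridization 2, with no value in hybridization 3.

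AEP1, INA17 and INA22 had means of 0.43, 0.12 and -0.06 and did not pass (adjusted p = 0.269, 0.771 and 0.88). ATP23, a protease and chaperone in the maturation of Atp6, had 0.96 and 1.03 in hybridization 1 and 0.76 in hybridization 2. Its mean of 0.88 was called higher once genes with 2 hybridizations were let in (limma adjusted p = 0.0196), as were 13.4% of all 4368 genes. A gene's own spread counted for little in that fit. AEP2 had a mean of 0.50 over hybridizations 1 and 2 and was positive in all 4 scans, while ATP25 had -0.27 and AEP3 -0.21. FMC1, which the head needs for assembly in heat, had -0.15 and 0.20 in hybridization 2 and 1.37 in hybridization 3. NCA2 had the single value 0.55 in hybridization 2, and ATP10 had none.

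The carriers that bring the enzyme its substrates were close to 0 or unevenly measured. MIR1, the mitochondrial phosphate carrier, had 0.35 and 0.25, 0.41 and 0.32, and 0.43 in the 3 hybridizations, a mean of 0.36 ± 0.06 (SD, n = 3) that did not pass (limma adjusted p = 0.272). PIC2, another carrier of the inner membrane, was at -0.23 ± 0.18 (adjusted p = 0.519). PET9, the main ADP/ATP carrier, had 0.22 and 0.06 in hybridization 1 and 1.89 in hybridization 3, where its block, the same as that of ATP2, had the median of 0.94. Once genes with 2 hybridizations were let in, PET9 was called higher (1.01 ± 1.24, SD, n = 2, limma adjusted p = 0.0061), as were 13.4% of all 4368 genes. Its 2 values were 0.14 and 1.89, and their spread counted for little in that fit. AAC1 had 1.16 in a single scan, and AAC3 had 0.39 in hybridization 1 and -0.01 and -0.27 in hybridization 2.

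Complexes of the respiratory chain, which builds the proton gradient, also had members that rose. No difference between them and the subunits was tested. Of the cytochrome bc1 complex 4 of 7 tested genes were higher and none lower, against 15.1% and 12.2% of all genes, with a median of 0.86 and a range from 0.02 (CYT1) to 1.56, QCR7 at 1.56 and QCR9 at 1.26 having the smallest p. Of cytochrome oxidase 4 of 6 were higher and none lower, with a median of 0.81 and COX6 and COX5B at 0.09 and 0.25 without a call, COX8 at 1.48 and COX12 at 0.86 having the smallest p. With the length trend removed these counts were 3 of 7 and 1 of 6, against 11.2% of all genes, and the medians 0.66 and 0.21. With 1 hybridization left out the counts were 2 to 3 of 7 and 1 to 2 of 6, where 115 to 263 of all 1891 genes were higher. The scans of COX8 in hybridization 2 gave 1.21 and -0.33, a difference of 1.53, where 95% of genes with both scans differed by at most 0.65. In hybridization 3 COX8 had 1.90, in the block with the median of 0.94 that also holds ATP2 and PET9. COX8 lost its call without hybridization 3 (1.27, adjusted p = 0.0527), and COX12 lost its own at 0.74 (hybridization 2 left out, adjusted p = 0.121) and at 0.79 (hybridization 3 left out, adjusted p = 0.0601). The cytochrome c gene CYC7 rose by 1.45 ± 0.13 (SD, n = 3, adjusted p = 0.000841), and CYC1 had 1.33 and 1.01 in hybridization 1 but -0.13 and -0.02 in hybridization 2. HAP4, the regulated subunit of the HAP activator, rose by 1.24 ± 0.52 (SD, n = 3, adjusted p = 0.0038), with 0.69 and 0.75, 1.32 and 1.15, and 1.76 in the 3 hybridizations. HAP2 and HAP3 had means of 0.91 and 0.44 over 2 hybridizations. Once genes with 2 hybridizations were let in, HAP2, QCR6 and COX13 were called higher (limma adjusted p = 0.0153, 0.0192 and 0.000482), as were 13.4% of all 4368 genes. The spread of a gene with 2 values came almost wholly from the other genes in that fit. HAP3, COX5A and CYC1 did not pass there (adjusted p = 0.293, 0.0697 and 0.179).

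**Figure D5:**
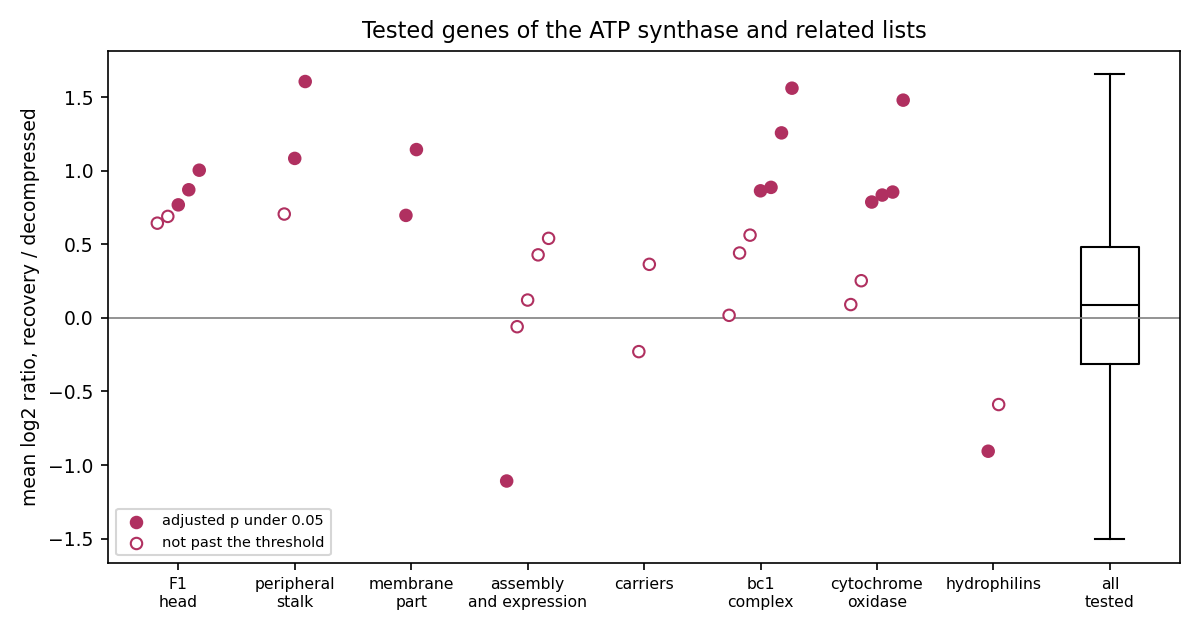
Mean log2 ratio over 3 hybridizations (vertical axis) of each tested gene of the ATP synthase parts and related lists (horizontal axis), filled where the limma adjusted p is under 0.05. The box at the right spans the quartiles of all 1891 genes tested, -0.31 to 0.48, with whiskers to the last value within 1.5 box lengths, and the 10 tested subunit genes of the first 3 lists all lie above its upper edge.

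Among 1823 named genes outside the 10, those nearest to the median profile of the 8 subunits over the 3 hybridizations (1.06, 0.77 and 1.13) were LIA1, SAM35, YLR297W and UTP30, with root mean square differences of 0.07 to 0.10. Those nearest to STF2 were YIL060W, UBC4, PRE9 and ECL1, at 0.07 to 0.12. Likeness over 3 values is weak: 69 genes lay within 0.3 of the subunits' profile and 46 within 0.3 of STF2.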

How the data were processed

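The authors deposited a log2 ratio for each feature in each scan. Per the labels' descriptions, the authors normalized by LOWESS with the spots flagged 0, and high and low power scans were merged into a value not used here. The log base was read from the lowest value, the log2 of 0.01. Column medians ran from -0.01 to 0.01. No genome build is named for the array, so coordinates are left out. Gene names came from the platform annotation, which names a single gene for 5297 of 6336 features; 5293 matched RefSeq assembly R64 by Entrez identifier, which gave locus names and gene lengths. No member's sequence was used here.

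Features of a gene and the scans of a hybridization were averaged. Log2 ratios of 1832 named genes and 59 unnamed features with all 3 hybridizations were tested against 0 (limma 3.58.1 in R 4.3.3, lmFit and eBayes, two-sided, Benjamini-Hochberg over all 1891, threshold 0.05; prior degrees of freedom 12.2, median standard error 0.25). Differences from STF2 were tested likewise over 1890 genes. Array number limits the precision, and depth does not apply. The test against 0 and the removal of a length trend were tried on simulated data. The differences from STF2, the combined standard errors and the centring within blocks were not. Members, lists and tests were chosen with earlier results of these data known. Named were the 10 members, all genes of the ATP synthase lists, the 2 to 4 genes of other lists with the smallest p, and the 4 genes nearest to each profile. CYC1, HAP2, HAP3, CYT1, COX5A, COX5B, COX6, COX13 and QCR6 were named in addition, after their values were seen. Alternatives were single scans, 5 scans with hybridization as random block, centring, scaling, length and block corrections, genes with 2 hybridizations, a robust prior, single features and each hybridization left out.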

Additional observations from a re-analysis of the deposited data

How the results depend on the processing

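Every subunit kept a positive mean and STF2 a negative one under all alternatives in which they had a value, and all 8 subunits stayed above STF2. STF2 passed the threshold with the length trend removed (-1.14) and with blocks and length corrected together (-1.01), and otherwise lay between -0.79 and -0.40 without a call. Leaving out 1 hybridization gave 1 to 5 subunits called higher, among 115 to 263 genes higher and 125 to 164 lower. With 1 hybridization left out, 5 to 8 subunits were called above STF2. The share of all genes called above STF2 was not computed for those fits. In the main limma fit of the differences from STF2 that share was 37.7%. Over genes with at least 2 hybridizations 8 subunits were called, among 585 genes higher and 613 lower. There ATP1, ATP2 and ATP7 passed at unchanged means (limma adjusted p = 0.0389, 0.0248 and 0.0216), in a fit whose prior had 897 degrees of freedom, so that a gene's own spread counted for little. ATP15 was lowest with both corrections (0.06, adjusted p = 0.825), where ATP7 passed (0.64, adjusted p = 0.015). ATP2 and ATP14 lacked a low power value and were not in that alternative. The difference from INH1 was not run, since INH1 had 1 hybridization. Each array holds both groups and gives 1 ratio, so the test of the ratio against 0 compared the groups within arrays. No further pairing was made.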
